A study of Mus musculus with 4 samples.

Results

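The genes of melanin synthesis and of the melanosome followed here in RNA sequencing of mouse skin numbered 10: Tyr, Tyrp1, Dct, Pmel, Mlana, Mitf, Mc1r, Slc45a2, Oca2 and Gpnmb. The 10 genes were taken by name as known genes of this pathway, by a rule that uses no measured level, although earlier results of these data were known when it was written, out of 39179 genes in the files, and all 10 were among the 16651 genes that passed a filter on low counts and were tested. The samples were 4 libraries of skin on the C57BL/6 background, a black strain, with 2 from wild-type (WT) mice and 2 from mice lacking the ubiquitin ligase Itch (knockout). Knockout skin was taken from lesions, WT skin is not described further, and inflammation is the stated phenotype of all 4 samples. No treatment, age, body site or Itch allele is given in the labels, and do not say whether the libraries are from different animals, and a p-value therefore reflects only library-to-library spread. Each library held 15144957 to 16008351 gene reads. Itch, the targeted gene, had 1450 and 1634 counts in WT skin and 185 and 184 in knockout skin, so each library lay on the side of its label.

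Melanin is made in melanosomes, organelles of melanocytes, where tyrosinase oxidises tyrosine and its relatives Tyrp1 and Dct steer later steps toward black-brown pigment. In the hairy skin of mice most pigment-making melanocytes sit in the hair bulb, and they are active while the follicle grows (anagen). In the resting phase (telogen) the pigment-making cells are gone from the follicle, and melanocyte stem cells remain near the bulge and hair germ. The transcription factor Mitf is known to bind the M-box, an E-box with a preceding T, in the promoters of the tyrosinase family.

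Promoter windows were read as a description only, and a link between their letters and the levels in the libraries was not tested. RefSeq (build GRCm38.p6) held windows of 300 bases, 250 before to 50 after a transcript start, for 7 of the 10 genes, with 3 separate windows for Mitf. The letters TCATGTG (M-box) stood in the windows of 4 genes, Tyr, Tyrp1, Dct and Mc1r, while 3.77% of all 32851 windows hold them on either strand. On the gene's own strand their first base was at -22 in Tyr, -47 in Tyrp1, -151 in Dct and -52 in Mc1r, with -1 as the base before the transcript start. Dct held a further M-box on the opposite strand at -232. The shorter E-box letters CATGTG, which lie inside each M-box and stand in 14.2% of all windows, were also present on the opposite strand of Mc1r at -62 and of Oca2 at -186. The letters CACGTG, in 7.15% of all windows, were found in no window of the 10 genes. Neither the single Gpnmb window nor the 3 Mitf windows held any of these letters. Pmel, Mlana and Slc45a2 had no window in the table. The windows that hold an M-box are shown 5′ to 3′ on the strand of the gene, with the M-box or E-box letters in capitals. They lie at chr7:87493463-87493762 (minus strand, Tyr), chr4:80833963-80834262 (plus strand, Tyrp1), chr14:118052197-118052496 (minus strand, Dct) and chr8:123406832-123407131 (plus strand, Mc1r).
Tyr: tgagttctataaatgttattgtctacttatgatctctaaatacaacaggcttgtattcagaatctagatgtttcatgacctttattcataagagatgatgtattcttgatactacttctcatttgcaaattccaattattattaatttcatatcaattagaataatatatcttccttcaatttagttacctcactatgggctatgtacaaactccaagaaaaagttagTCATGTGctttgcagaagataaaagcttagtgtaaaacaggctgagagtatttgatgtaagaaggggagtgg
Tyrp1: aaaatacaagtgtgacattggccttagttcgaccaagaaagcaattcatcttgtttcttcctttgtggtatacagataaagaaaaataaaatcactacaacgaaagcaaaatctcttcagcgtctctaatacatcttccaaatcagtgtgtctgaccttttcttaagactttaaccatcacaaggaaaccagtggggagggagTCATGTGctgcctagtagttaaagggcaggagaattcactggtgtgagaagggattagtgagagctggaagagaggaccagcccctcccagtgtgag
Dct: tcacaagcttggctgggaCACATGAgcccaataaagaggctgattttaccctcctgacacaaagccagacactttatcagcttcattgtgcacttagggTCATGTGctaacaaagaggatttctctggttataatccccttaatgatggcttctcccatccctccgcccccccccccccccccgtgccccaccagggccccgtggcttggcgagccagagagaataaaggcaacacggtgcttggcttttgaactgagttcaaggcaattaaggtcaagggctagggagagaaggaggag
Mc1r: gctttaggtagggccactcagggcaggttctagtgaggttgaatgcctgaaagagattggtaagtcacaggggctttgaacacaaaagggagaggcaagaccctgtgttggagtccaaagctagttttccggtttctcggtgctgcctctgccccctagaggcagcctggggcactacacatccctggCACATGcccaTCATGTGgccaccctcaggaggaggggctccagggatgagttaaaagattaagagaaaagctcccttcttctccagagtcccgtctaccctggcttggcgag

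The pigment genes separated the WT libraries from each other and not the genotypes. Levels are given as CPM, read counts scaled to a common library size with TMM factors. The summed level of 7 core genes, Tyr, Tyrp1, Dct, Pmel, Mlana, Slc45a2 and Oca2, stood at 38.4 CPM in WT replicate 1, 559 in WT replicate 2, 167 in knockout replicate 1 and 399 in knockout replicate 2. Both knockout libraries thus lay between the WT libraries. WT replicate 2 was 14.6-fold above WT replicate 1 (95% exact counting interval 13.4 to 15.9), and knockout replicate 2 was 2.39-fold above knockout replicate 1 (2.28 to 2.50). These intervals cover counting error only and compare libraries, not conditions. In bulk skin, fewer melanocytes and less pigment RNA per melanocyte cannot be told apart.

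All 10 genes were lowest in WT replicate 1, which was the lowest library for 34.2% of tested genes. In 8 of them WT replicate 1 was lowest and WT replicate 2 highest, a pattern seen in 6.27% of tested genes, with Mlana and Gpnmb as the exceptions. WT replicate 2 exceeded WT replicate 1 by over 8-fold, on CPM + 0.5, for 8 of the 10, against 1.35% of tested genes, with Mitf and Gpnmb as the exceptions.

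**Figure D1:**
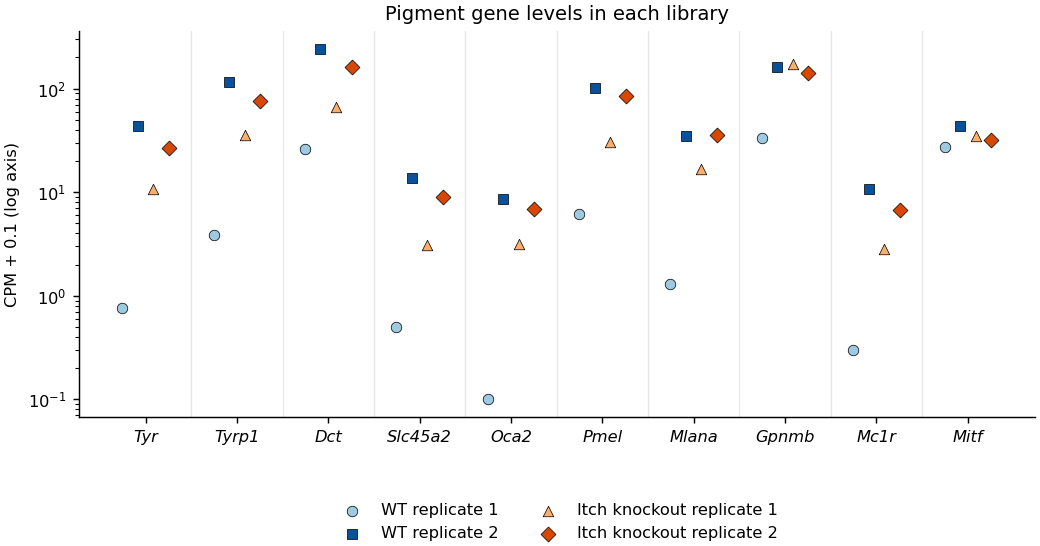
Level of each pigment gene (CPM + 0.1, log axis) in the 4 libraries, with 1 point per library. For 7 genes the order runs from WT replicate 1 through knockout replicates 1 and 2 to WT replicate 2, and Oca2 has 0 counts in WT replicate 1.

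Tyr (ENSMUSG00000004651, GRCm38 chromosome 7, 87424771 to 87493512, minus strand) encodes tyrosinase, the rate-limiting enzyme of melanin synthesis. Its counts were 10 and 688 in WT replicates 1 and 2, then 168 and 419 in knockout replicates 1 and 2, or 0.667, 43.4, 10.6 and 26.7 CPM. The ratio of the WT libraries was 65.1 (counting interval 35.2 to 136) and that of knockout replicate 2 to knockout replicate 1 was 2.52 (2.10 to 3.03). Tyrp1 (ENSMUSG00000005994, chromosome 4, 80834123 to 80851719, plus strand), an enzyme of the eumelanin branch that also stabilises tyrosinase, had 57 and 1832 counts in WT skin and 566 and 1199 in knockout skin, or 3.80, 115.6, 35.7 and 76.4 CPM. Its WT ratio was 30.4 (23.4 to 40.3), so both enzymes ranked the libraries alike.

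Dct (ENSMUSG00000022129, chromosome 14, 118012790 to 118052244, minus strand), dopachrome tautomerase, is also a marker of melanoblasts and melanocyte stem cells. It had 394 and 3838 counts in WT skin and 1059 and 2508 in knockout skin, or 26.3, 242, 66.9 and 159.8 CPM. The library order was that of Tyr and Tyrp1 and the WT ratio was smaller, 9.22 (8.31 to 10.3), with an interval that overlapped neither of theirs. In WT replicate 1 there were 39.4 Dct reads for each Tyr read, against 5.58, 6.30 and 5.99 in WT replicate 2 and knockout replicates 1 and 2.

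The make-up of the core pigment reads set WT replicate 1 apart in the same way. Dct took 68.4% of them there (exact binomial interval 64.4 to 72.2), against 43.3% in WT replicate 2 (42.3 to 44.4) and 40.1% in both knockout libraries (38.3 to 42.0 in replicate 1, 38.9 to 41.3 in replicate 2). Tyr took 1.74% in WT replicate 1 (0.836 to 3.17) and 6.37% to 7.77% in the other libraries, and Tyrp1 took 9.90% (7.58 to 12.6) against 19.2% to 21.4%. Pmel took 15.8% to 21.1%. Mlana took 3.12% (1.86 to 4.89) and 6.17% (5.67 to 6.69) in WT and 10.04% (8.92 to 11.3) and 9.02% (8.32 to 9.75) in the knockouts. The intervals cover counting error within a library, not the spread between libraries, and no test across libraries was made on these shares. These shares rest on 576 core reads in WT replicate 1 and on 2639 to 8855 in the other libraries.

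**Figure D2:**
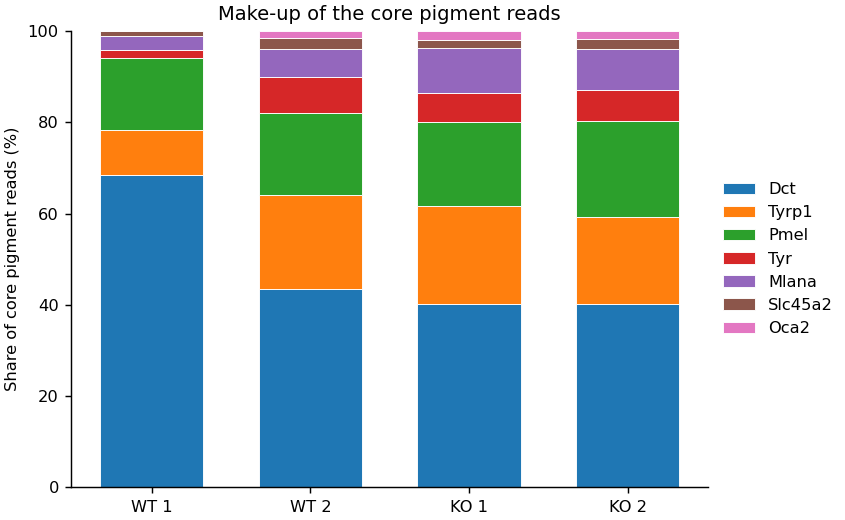
Share of the 7 core pigment genes in the reads assigned to them, in percent, with 1 stacked bar per library (KO, knockout). Dct fills 68.4% of the bar of WT replicate 1 and 40.1% to 43.3% of the others, and Oca2 is absent from the bar of WT replicate 1.

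Slc45a2 and Oca2 encode melanosomal transport proteins whose loss lightens coat and eyes. Slc45a2 (ENSMUSG00000022243, chromosome 15, 11000721 to 11029233, plus strand) gave 6 and 216 counts in WT skin and 47 and 138 in knockout skin, or 0.400, 13.6, 2.97 and 8.79 CPM. Oca2 (ENSMUSG00000030450, chromosome 7, 56239760 to 56536518, plus strand), the pink-eyed dilution protein, had 0 and 135 counts in WT skin and 48 and 107 in knockout skin. These were 0, 8.52, 3.03 and 6.82 CPM, and WT replicate 2 was 42.6-fold higher than WT replicate 1 set at a floor of 3 counts per library. The counting interval of the WT ratio began at 34.2 and had no upper end.

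The structural genes of the melanosome were lowest in WT replicate 1, and Pmel, unlike Mlana, had the library order of the enzymes. Pmel (ENSMUSG00000025359, chromosome 10, 128704195 to 128720238, plus strand), which builds the fibrils on which melanin is laid down, had 91 and 1600 counts in WT skin and 486 and 1320 in knockout skin, or 6.07, 101.0, 30.7 and 84.1 CPM. Exons of Dgka and Cdk2 on the opposite strand overlap 4.58% and 1.48% of its exon length, and the strand setting of the counting is not given in the sources used here. Mlana (ENSMUSG00000024806, chromosome 19, 29697824 to 29708634, plus strand), a small melanosomal membrane protein, had 18 and 546 counts in WT skin and 265 and 564 in knockout skin, or 1.20, 34.5, 16.7 and 35.9 CPM. WT replicate 2 and knockout replicate 2 did not differ for Mlana beyond counting error (ratio 0.959, 0.851 to 1.08), whereas WT replicate 2 was 1.20-fold above for Pmel (1.12 to 1.29) and 1.63-fold above for Tyr (1.44 to 1.84).

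Mc1r (ENSMUSG00000074037, chromosome 8, 123407107 to 123410744, plus strand), the melanocortin receptor that turns melanocytes toward black pigment, was sparse. It had 3 and 168 counts in WT skin and 43 and 105 in knockout skin, or 0.200, 10.6, 2.72 and 6.69 CPM, with a WT ratio of 53.0 (17.8 to 260). Its library order was that of Tyr. A transcript of uncertain status on the opposite strand, Gm38092, covers 17.9% of its single exon.

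Mitf and Gpnmb did not have the library order of Tyr, and both differed less between the WT libraries than the other members. Mitf was still lowest in WT replicate 1 and highest in WT replicate 2. Mitf (ENSMUSG00000035158, chromosome 6, 97807052 to 98021349, plus strand), the master transcription factor of melanocytes that is also made by mast cells and macrophages, had 404 and 692 counts in WT skin and 549 and 495 in knockout skin. Its levels of 26.9, 43.7, 34.7 and 31.5 CPM differed 1.62-fold between the WT libraries (1.43 to 1.84), and the knockout libraries did not differ beyond counting error (ratio 0.910, 0.804 to 1.03). Gpnmb (ENSMUSG00000029816, chromosome 6, 49036546 to 49070929, plus strand), a relative of Pmel found in melanosomes and in lysosome-rich macrophages, had 503 and 2539 counts in WT skin and 2757 and 2227 in knockout skin, or 33.5, 160.3, 174 and 141.9 CPM. Here knockout replicate 1 was the highest library and knockout replicate 2 stood below it (ratio 0.815, 0.770 to 0.862), the reverse of the core genes. Per CPM of the core sum, Gpnmb stood at 0.873 and 0.287 in WT skin and at 1.04 and 0.356 in knockout skin.

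Markers of other cells that make Mitf and Gpnmb were also read. In the macrophage, lysosome-rich macrophage and mast cell lists edgeR called 0 genes, against 0.00601% of all tested genes. At an unadjusted edgeR p under 0.05, 10 of 11, 3 of 9 and 7 of 8 genes were higher in the knockouts. In these lists 0 were lower, and 22.8% of all tested genes passed in either direction. The macrophage list (11 genes) summed to 449 and 493 CPM in WT skin and 3420 and 2718 in knockout skin, with no marker at 0 in any library and 10 of 11 genes higher in both knockout libraries than in both WT libraries, as were 31.2% of all tested genes. Its most abundant genes were Lyz2 at 188 and 188 against 1032 and 573 CPM, C1qb at 30.5 and 51.8 against 460 and 374 CPM, and C1qa at 30.3 and 47.1 against 421 and 383 CPM. A list of lysosome-rich macrophage genes (9 genes) summed to 3318 and 3544 CPM in WT skin and 5021 and 3869 in knockout skin, led by Ctsd, Lpl and Lgals3, which other skin cells also make. Of these 9 genes, 4 were higher in both knockout libraries (31.2% of tested genes) and 1 was lower in both (30.0%). The log2 fold changes of the 3 leading genes were 0.39 for Ctsd, -0.49 for Lpl and 0.10 for Lgals3. The 3 genes with an unadjusted edgeR p under 0.05 were Spp1 at 5.14, Trem2 at 3.08 and Ctsk at 2.44. The mast cell list (8 genes) summed to 122 and 191 CPM in WT skin and 707 and 811 in knockout skin, and all 8 were higher in both knockout libraries, again against 31.2% of tested genes, with Hdc, Mcpt4 and Tpsb2 as the most abundant among them. The part of these cells in the Mitf and Gpnmb levels was not tested. Within the MiT family to which Mitf belongs, Tfec, known from macrophages, stood at 0.867 and 0.821 CPM in WT skin and 13.5 and 17.4 in knockout skin, a log2 fold change of 4.18 (SE 0.34, edgeR quasi-likelihood adjusted p = 0.0548), while Tfe3 and Tfeb had log2 fold changes of 0.45 (SE 0.18) and -0.34 (SE 0.29).

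No pigment gene passed the comparison of knockout with WT skin, which asks how the skin transcriptome differs without Itch. With edgeR's quasi-likelihood test and an adjusted p under 0.05, 0 of 10 were called, against 0.00601% of all tested genes, which is 1 gene. That gene was the sex-linked Eif2s3y (edgeR adjusted p = 0.0269). At an unadjusted p under 0.05 the counts were 0 of 10 against 22.8%, and DESeq2 called 0 of 10 against 14.0%. In none of the 10 genes did both knockout libraries lie above both WT libraries, as they did for 31.2% of tested genes, or below both, as for 30.0%. The median log2 fold change was -0.09 over the 10 genes and 0.01 over all tested genes. The median over the 10 genes was 1.18 in limma-voom, 1.04 with the replicate number as a block, -0.93 without WT replicate 1 and 3.87 without WT replicate 2, with the median of all tested genes between 0.02 and 0.03 in these fits.

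The log2 fold changes of knockout over WT ran from -0.26 for Slc45a2 (SE 1.52, adjusted p = 0.932) to 0.71 for Gpnmb (SE 0.76, adjusted p = 0.606). The 95% intervals were wide and a miss of the threshold does not show equal levels: that of Tyr (log2 fold change -0.24) reached from -4.78 to 4.29, that of Tyrp1 (-0.09) from -4.09 to 3.91 and that of Dct (-0.24) from -3.26 to 2.77. For Pmel (0.10) it was -3.50 to 3.70, for Mlana (0.56) -3.35 to 4.47, for Mc1r (-0.20) -4.47 to 4.07 and for Oca2 (0.21) -4.72 to 5.14. Mitf had the narrowest interval, -0.87 to 0.68 around a log2 fold change of -0.09 (SE 0.29, adjusted p = 0.864). Which WT library was kept decided the direction of all 10 genes. Without WT replicate 1, 0 were called, and all 10 log2 fold changes were below 0, from -1.22 for Tyr to -0.02 for Gpnmb. Without WT replicate 2 all 10 were above 0 and 6 were called as higher, against 15.3% of tested genes: Tyr at 4.79 (adjusted p = 0.0401), Tyrp1 at 3.89 (adjusted p = 0.0466), Mlana at 4.45 (adjusted p = 0.0250), Mc1r at 4.51 (adjusted p = 0.0220), Gpnmb at 2.24 (adjusted p = 0.00113) and Oca2 (adjusted p = 0.00872). In that fit the WT group of Oca2 is at 0 counts, so its fold is given as a bound with WT set at the floor of 3 counts. The knockout mean was 24.6-fold above that floor, with counting error left out. The lone WT library was there assumed to vary as the knockouts do.

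**Figure D3:**
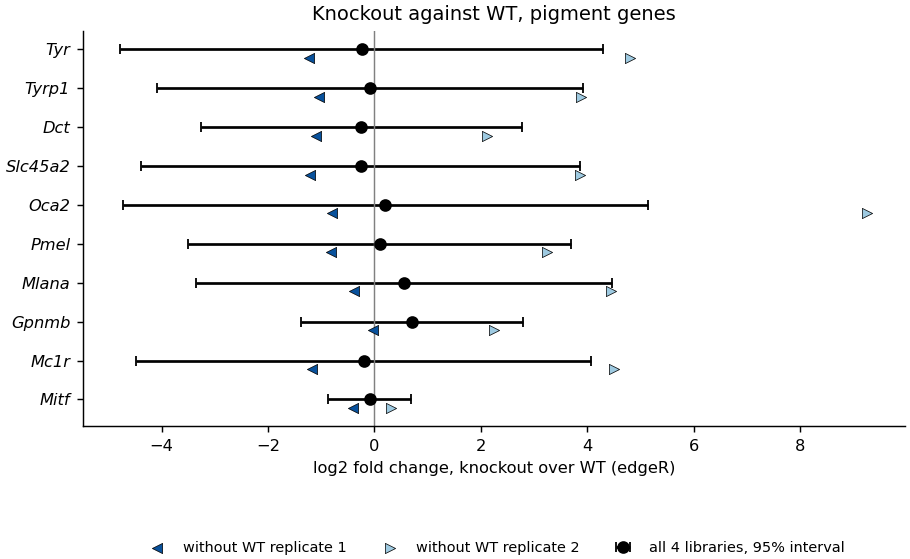
edgeR log2 fold change of knockout over WT for each pigment gene with its 95% interval (black), and the same value with either WT library left out (triangles). All triangles without WT replicate 1 lie below 0 and all those without WT replicate 2 above it, and the one for Oca2 at the far right is a fitted value against 0 counts and no bound.

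Beside the hair cycle, WT replicate 1 was the library with the least follicle growth RNA. Genes of the inner root sheath (8 genes), which forms in growing follicles, summed to 43.2 CPM in WT replicate 1 and to 8737, 6245 and 9537 in WT replicate 2 and knockout replicates 1 and 2. Its most abundant genes were the keratin genes Krt71 and Krt25 and Tchh, and Krt71 stood at 9.60, 2608, 1707 and 2848 CPM. Hair shaft keratins (12 genes) summed to 16.6, 1126, 1975 and 1750 CPM and keratin-associated proteins of the shaft (7 genes) to 28.5, 848, 2049 and 1455 CPM in the same order. Reads of the near-identical shaft keratin genes may be shared between copies, which makes single values uncertain. All 27 genes of these 3 lists were lowest in WT replicate 1, 0 were called, and 17 of the 27 were higher in both knockouts than in both WT libraries, against 31.2% of tested genes. These were 9 of 12 shaft keratins and 7 of 7 keratin-associated proteins, but 1 of 8 inner root sheath genes.

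The summed pigment and shaft levels did not rank the other 3 libraries alike. The core pigment sum was highest in WT replicate 2 and lowest of the 3 in knockout replicate 1, whereas knockout replicate 1 had the highest sums of shaft keratins and keratin-associated proteins. The order of the shaft sums did not hold gene by gene. Krt32, Krt35 and Krt82 were lowest of the 3 in knockout replicate 1. These genes, Krt84 and Krtap11-1 were highest in knockout replicate 2, and the other shaft genes in knockout replicate 1. Krtap14 stood at 48.0 CPM in WT replicate 2 and at 210 and 118 in knockout replicates 1 and 2. Per CPM of shaft keratins, the core pigment sum stood at 0.497 in WT replicate 2, 0.0844 in knockout replicate 1 and 0.228 in knockout replicate 2. Per CPM of inner root sheath genes it stood at 0.0640, 0.0267 and 0.0418. In WT replicate 1 these ratios were 2.31 and 0.889, on 16.6 and 43.2 CPM of follicle RNA. No test of these ratios was made.

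Regulators of the hair matrix (12 genes) summed to 543 CPM in WT replicate 1, 1004 in WT replicate 2, 658 in knockout replicate 1 and 928 in knockout replicate 2, the library order of the core pigment sum. The order of the sum did not hold gene by gene. WT replicate 1 was lowest for 9 of the 12 genes and WT replicate 2 highest for 5. The 3 most abundant genes did not share it, with Gata3 at 330 and 248 CPM in WT skin and 135 and 157 in knockout skin. Dlx3 stood at 35.6, 226, 125 and 227 CPM and Ovol1 at 88.7, 155, 153 and 162 CPM, both highest in knockout replicate 2. Of the 12, 0 were called. The list of bulge and resting-follicle genes (9 genes), led by Krt15, Cd34 and Sox9, summed to 2794 and 1853 CPM in WT skin and to 1147 and 1144 CPM in knockout skin, and 0 of the 9 were called. Krt15 carried most of that sum, at 2250, 1322, 582 and 625 CPM. Sox9, at 50.3 and 87.9 CPM in WT replicates 1 and 2, was higher in WT replicate 2, as were Lgr5, Lhx2, Foxc1 and Tbx1. Cell division genes (6 genes), led by Mki67, Top2a and Cdk1, summed to 254, 564, 493 and 512 CPM. The part of the hair cycle in the pigment levels was not tested.

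**Figure D4:**
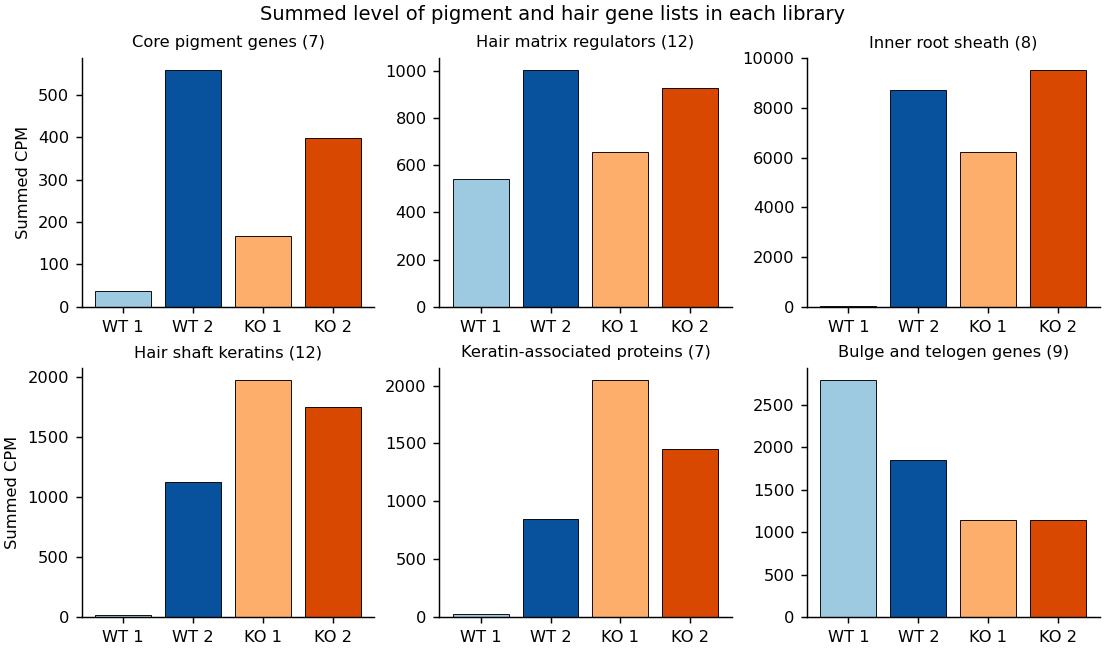
Summed CPM of the core pigment genes and of 5 hair follicle lists in each library (bars from 0, WT and KO replicates 1 and 2, number of genes in brackets, axes differ). WT replicate 1 has the lowest bar in the pigment, matrix, sheath and shaft panels and the highest in the bulge panel, and knockout replicate 1 has the highest shaft bars but a core pigment bar of 167.

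Other differences between the libraries ran beside the pigment levels. Skeletal muscle genes (25 genes) summed to 28029 CPM in WT replicate 1 and to 4194, 2138 and 1860 in the other libraries. With library sizes taken without them and no TMM factor, the core pigment sums were 38.4, 587, 165 and 395 CPM. The epidermal keratin genes Krt5, Krt10 and Krt1 were abundant in every library and none was at 0, with the keratinocyte list (6 genes) at 13081 to 15580 CPM. Xist stood at 1055 and 631 CPM in WT against 0.947 and 0.892 in the knockouts, so that sex and genotype cannot be told apart here.

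Levels of different genes were compared per kilobase of merged exon length. Averaged over the 4 libraries, Pmel stood at 24.2 CPM per kilobase, Dct at 21.0, Mlana at 20.9, Tyrp1 at 20.5 and Gpnmb at 19.6. Neighbours in this order overlapped widely across libraries, with Pmel from 2.65 to 44.1 and Dct from 4.46 to 41.1 CPM per kilobase. Mitf followed at 5.52, Tyr at 2.86, Slc45a2 at 2.16, Mc1r at 1.39 and Oca2 at 1.16 CPM per kilobase. In WT replicate 1 the order differed, with Gpnmb at 5.15, Dct at 4.46 and Mitf at 4.35 above Pmel at 2.65 CPM per kilobase.

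The other genes of the pigment pathway were read in 4 lists, of which 51 genes were matched and 49 tested. In edgeR 0 of the 49 were called, and at an unadjusted p under 0.05 there were 4 higher and 4 lower in the knockouts, against 22.8% of all tested genes in either direction. Their median log2 fold change was 0.02. The 2 knockout libraries were each higher than either WT library for 12 of them (31.2% of tested genes) and each lower for 8 (30.0%). WT replicate 1 was the lowest library for 21 of the 49, against 34.2% of all tested genes and 10 of 10 pigment genes.

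Channels and receptors of the melanosome (9 genes) held the closest likeness to the core genes. Slc24a5, a cation exchanger of the melanosome, stood at 0.200, 5.68, 1.96 and 4.46 CPM in WT replicates 1 and 2 and knockout replicates 1 and 2. Trpm1, a cation channel of melanocytes, stood at 2.27, 71.0, 19.5 and 43.6 CPM. Gpr143, the receptor mutated in ocular albinism, stood at 0, 4.99, 0.758 and 3.31 CPM, and the tetraspanin gene Tspan10 at 0.133, 4.61, 1.77 and 3.63 CPM. These 4 genes, named after their values were seen, had the library order of Tyr. Depth limited Slc24a5, Tspan10 and Gpr143 in WT replicate 1, with 3, 2 and 0 counts. The genes of this list with the smallest p were found in many cell types and separated the genotypes instead, without an edgeR call. Atp7a, a copper transporter that supplies tyrosinase, stood at 31.1 and 27.2 CPM in WT skin and 11.1 and 9.37 in knockout skin (log2 fold change -1.51, SE 0.23, edgeR adjusted p = 0.0766). Cd63, a tetraspanin of late endosomes that sorts Pmel, stood at 20.7 and 30.0 against 72.9 and 63.9 CPM (1.43, SE 0.25, edgeR adjusted p = 0.0885). Tpcn2, an ion channel of melanosomes and lysosomes, stood at 8.40 and 16.3 against 28.9 and 26.7 CPM (edgeR adjusted p = 0.187). Slc7a11, the cystine importer that feeds pheomelanin synthesis and is induced by oxidative stress, stood at 0.400 and 6.56 against 73.1 and 26.6 CPM (3.83, SE 1.33, edgeR adjusted p = 0.205).

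Transport and biogenesis genes differed less between the WT libraries than the core genes did. Of 7 tested transport genes, 0 were called, and Rab27a, the GTPase that tethers melanosomes to the motor Myo5a, had the smallest p, at 63.1 and 47.6 against 33.7 and 31.1 CPM (a log2 fold change of -0.77, SE 0.21, edgeR adjusted p = 0.155). Myo5a itself stood at 82.1 and 123 against 160 and 141 CPM, Mreg at 104 and 85.9 against 71.8 and 67.0, and Rab7 at 222 and 218 against 318 and 263 CPM. The list of 19 biogenesis genes had 0 called, 1 gene up and 1 down in the knockouts with an unadjusted p below 0.05, and log2 fold changes between -1.05 and 0.63. Dtnbp1, the dysbindin subunit of the BLOC-1 complex, stood at 51.7 and 48.5 against 80.8 and 74.9 CPM, and Lyst, whose loss gives giant melanosomes in beige mice, at 56.9 and 41.5 against 29.8 and 17.7 CPM. Snapin stood at 110.7 and 69.6 against 62.5 and 60.3 CPM, and Rabggta at 34.8 and 38.1 against 41.2 and 45.1 CPM.

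Signals and factors of melanocytes (14 genes tested) had 0 calls and 1 gene lower at an unadjusted p under 0.05, Atrn, the attractin gene needed for agouti signalling, at 83.8 and 80.9 against 63.4 and 60.7 CPM (edgeR adjusted p = 0.202). Kit, the stem cell factor receptor of melanocytes and mast cells, stood at 8.13 and 34.1 CPM in WT skin and 26.5 and 46.5 in knockout skin. Ednrb, the endothelin receptor of melanoblasts that vessels and other cells also carry, stood at 9.80 and 37.0 against 65.6 and 80.8 CPM (a log2 fold change of 1.64, SE 0.67, edgeR adjusted p = 0.246). Its ligand gene Edn3 ran from 0.189 CPM in knockout replicate 1 to 9.09 in WT replicate 2. Of the neural crest factors, Sox10 stood at 7.20 and 8.02 against 3.35 and 9.68 CPM, and Pax3 at 1.8 and 3.53 against 0.884 and 2.17 CPM. Sox10 is also made by Schwann cells, and their part in its level was not tested. Pomc, the precursor of the Mc1r agonist, had no more than 6 counts in any library, and Asip was not analysed here.

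**Figure D5:**
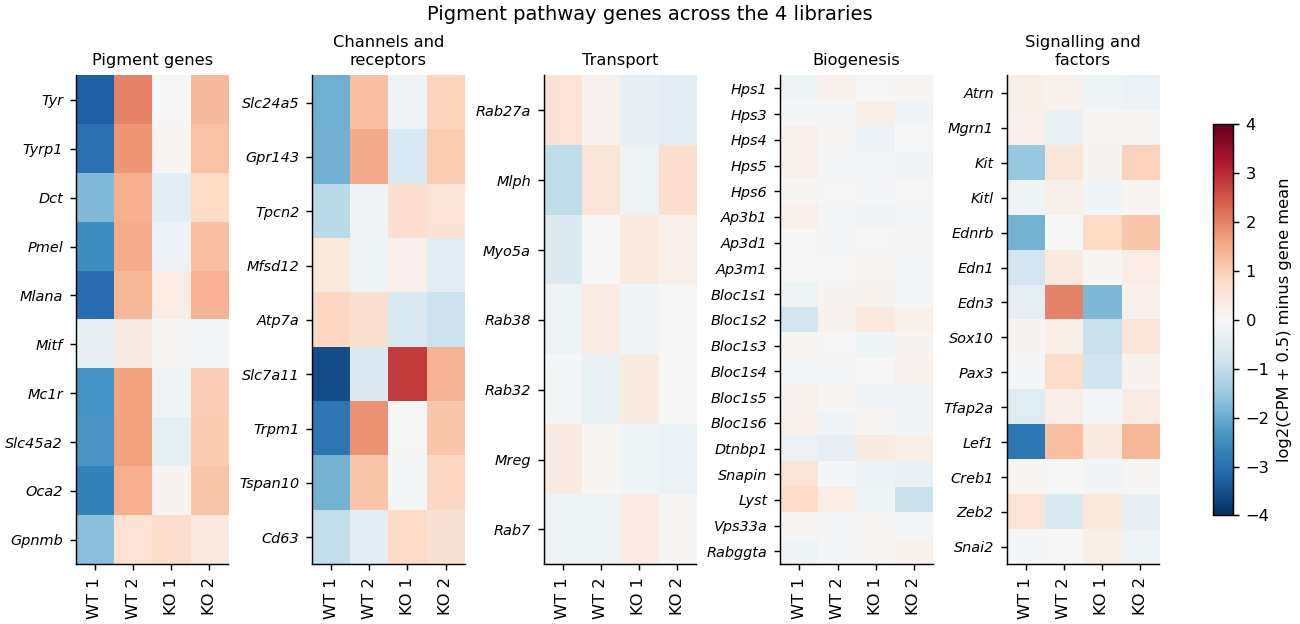
Heat map of log2(CPM + 0.5) minus the mean of each gene over the 4 libraries (red higher, blue lower), for the 10 pigment genes and the 49 tested genes of 4 pathway lists (KO, knockout). The core genes, Slc24a5, Gpr143, Trpm1 and Tspan10 are blue in WT replicate 1 and reddest in WT replicate 2 apart from Mlana, while most transport and biogenesis genes are pale.

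Genes outside all lists with the profile most like the core pigment sum were ranked by the root mean square distance of centred log2(CPM + 0.5) over the 4 libraries, among 12122 named genes with a mean of 5 CPM or more. The nearest were Gnmt (distance 0.134), encoding glycine N-methyltransferase, Col11a1 (0.201), a fibrillar collagen chain, Hunk (0.202), a protein kinase, Dlx2 (0.214), a homeobox factor, and Kcnk16 (0.266), a potassium channel. Gnmt stood at 1.60 and 29.7 CPM in WT skin and 10.8 and 22.1 in knockout skin. Among the pigment genes themselves, Mc1r lay at 0.0611, Slc45a2 at 0.101, Pmel at 0.119, Oca2 at 0.264, Dct at 0.323, Tyrp1 at 0.392, Mlana at 0.486 and Tyr at 0.545. Gpnmb at 0.802 and Mitf at 1.29 were the farthest. The 0.5 CPM added before the log shrinks the range of low-level genes but hardly that of the core sum. Without this addition, WT replicate 2 was 53.0-fold above WT replicate 1 for Mc1r, 65.1-fold for Tyr and 14.6-fold for the core sum. The ranking therefore depends on level as well as on profile. With 4 libraries such a likeness is a description of these samples.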

How the data were processed

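RNA of mouse skin was sequenced in 2 WT and 2 Itch knockout libraries, grouped by their labels. The authors deposited raw read counts per Ensembl gene, with a separate table for each library and no scaling. The submitters' processing notes name HTSeq 0.6.1, SAMtools 0.1.19, TopHat2 and CASAVA 1.8.2, and the mm10 build. No annotation release, strand setting or read filter is named in the sources used here. Reads without a feature and ambiguous reads came to 5.68% to 7.45% and 4.48% to 4.70% and were left out.

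Symbols, positions and merged exon lengths came from GENCODE vM21, in which 37607 of 39179 identifiers matched. Tests used edgeR 4.0.16 in R 4.3.3 (filterByExpr with a minimum count of 10, TMM, robust two-sided quasi-likelihood F test, Benjamini-Hochberg adjustment over all 16651 tested genes, threshold 0.05), tested on simulated data. Alternatives were DESeq2 1.42.0, limma-voom 3.58.1, other scalings, no filter, a replicate block, and omission of X and Y genes or of each library.

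The members and lists were chosen with earlier results of these data known. The text names all 10 members. Of the other pathway lists it names Asip, Kit, Sox10 and up to 4 genes per list with the smallest p, of hair cycle and cell type lists up to 3 genes with the highest mean CPM and Krtap14, and the 5 unlisted genes nearest in profile to the core sum. Any other gene was named after its values were seen.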

Additional observations from a re-analysis of the deposited data

How the results depend on the processing

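The number of genes called over all genes was 1 with edgeR, 488 with no filter on low counts, 2329 with DESeq2, and 0 with limma-voom (3566 at an unadjusted p under 0.05), with the replicate number as a block (3998) and without X and Y genes (3649). It ranged from 0 to 5320 when single libraries were left out: 1317 without WT replicate 1, 5320 without WT replicate 2 and 0 without either knockout library (1432 and 1501 at an unadjusted p under 0.05). The number of pigment genes called ranged from 0 to 6 over the same omissions, 6 only without WT replicate 2, and was 0 under each other alternative. The log2 ratio of the summed core level, knockout over WT, was -0.08 and ranged from -0.98 to 2.88 over the omissions (2.88 without WT replicate 2), while other scalings gave -0.10 to -0.16.

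The replicate numbers are shared by the groups but no label says that they mark a pairing, and with 2 pairs the correlation of deviations (0.186) does not establish one. With the replicate block and in limma-voom, 5 log2 fold changes turned from below to above 0, without a call, and the cause was not tested. With the block they were 1.30 for Tyr, 1.22 for Tyrp1, 0.37 for Dct, 0.97 for Mc1r and 0.79 for Slc45a2. In limma-voom they were 1.57, 1.27, 0.37, 1.41 and 1.05 in the same order. Over the omissions of single libraries, the log2 fold change ranged from -1.22 to 4.79 for Tyr, -1.05 to 3.89 for Tyrp1, -1.10 to 2.11 for Dct, -1.24 to 3.86 for Slc45a2, -0.79 to 9.26 for Oca2 (a fitted value against 0 counts, with 4.62 as its bound), -0.82 to 3.25 for Pmel, -0.39 to 4.45 for Mlana, -1.18 to 4.51 for Mc1r, -0.024 to 2.24 for Gpnmb and -0.40 to 0.30 for Mitf. With a single library left in a group, that library was assumed to vary like the others. Depth limited Mc1r, Slc45a2 and Oca2 in WT replicate 1, with 3, 6 and 0 counts.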

Other observations

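Hair follicle genes outside the pigment pathway differed in their distance from the core pigment sum. By the same distance of centred log2 levels, Corin lay at 0.207, Msx1 at 0.241 and Shh at 0.258. Corin encodes a protease of the dermal papilla known in mice as a modifier of the agouti pathway. These distances were smaller than those of Dct, Tyrp1, Mlana and Tyr, which does not show closer tracking. The amount added before the log shrinks the range of low-level genes such as Shh, with 2 counts in WT replicate 1. The distance therefore depends on level as well as on profile, and Dct, Tyrp1, Mlana and Tyr are themselves parts of the sum. Corin stood at 0.800 and 14.1 CPM in WT replicates 1 and 2 and at 3.28 and 9.49 in knockout replicates 1 and 2. Shh, a signal of the growing hair bulb, stood at 0.133, 8.46, 3.60 and 6.05 CPM, and Msx1 at 2.60, 27.3, 9.79 and 24.2 CPM. These genes were named after their values were seen, over 4 libraries, and 0 of them passed between genotypes (edgeR adjusted p = 0.934 for Corin, 0.956 for Shh and 0.937 for Msx1). The dermal papilla list (6 genes), led by Sostdc1, Wif1 and Fgf7, summed to 96.3 and 178 CPM in WT skin and 116 and 162 in knockout skin. None of these leading genes had the library order of the core pigment sum. Sostdc1 was lowest in knockout replicate 1, and Wif1 and Fgf7 were highest in knockout replicate 2.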
